A study of Mus musculus with 24 samples.

Results

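The 10 antiviral effector genes Mx1, Mx2, Rsad2, Cmpk2, Bst2, Isg20, Ifitm1, Ifitm2, Ifitm3 and Ifitm6 were taken by symbol from a table of 54532 mouse genes, and each symbol matched 1 row. They were described in 2 kinds of cultured mouse bone marrow cells, macrophages (BMDMs) raised in L929-conditioned medium and dendritic cells (BMDCs) raised in GM-CSF plus IL-4. The cells came from C57BL/6N mice in which both copies of Tmem173, the gene for the DNA-sensing adaptor STING, carry loxP sites (Tmem173 fl/fl). This allele was shared by all 8 groups, and the series describes tamoxifen induction of the mice, so the WT label means floxed and without Cre. The CRE label adds Lyz2-CreERT2, a tamoxifen-inducible Cre under the promoter of the myeloid gene Lyz2. Control cells (CT) were compared with cells given DMXAA (DX), an agonist of mouse STING. The series gives its dose as 40 µM while the study's methods use µg/mL, so the concentration is uncertain, and the exposure time of these cells is not given in the sources used here. Each of the 8 groups, BMDM or BMDC by WT or CRE by CT or DX, held 3 polyA libraries numbered 1 to 3. The ages of the mice that gave this marrow and the number of animals behind a library are not stated, although the study's methods give ages at tamoxifen injection for both lines in general, so p-values measure the spread between these libraries, which may be technical.

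STING activation leads through IRF3 to type I interferon, which acts through its receptor to switch on effector genes. Mx proteins are dynamin-like GTPases that block viral ribonucleoproteins. The Mx1 gene of C57BL/6 mice carries a known deletion and the Mx2 gene a known frameshift, and the annotation calls Mx2 a polymorphic pseudogene, so their transcripts are read here as transcripts only. Rsad2 encodes viperin, a radical SAM enzyme that makes a chain-terminating ribonucleotide, and Cmpk2 encodes the nucleotide kinase that supplies it. Bst2 (tetherin) holds budding virions at the cell surface, Isg20 is an RNA exonuclease, and the Ifitm proteins block fusion of viral and endosomal membranes.

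In GRCm38 coordinates, as deposited, the members form 3 clusters and 2 single loci. The Mx pair lies on chromosome 16, with Mx1 (ENSMUSG00000000386) at chr16:97447035-97462907 on the minus strand and Mx2 (ENSMUSG00000023341) at chr16:97535308-97560900 on the plus strand. Rsad2 (ENSMUSG00000020641, chr12:26442746-26456452, minus) and Cmpk2 (ENSMUSG00000020638, chr12:26469204-26479837, plus) are divergent neighbours with 12752 bp between them. Ifitm2 (ENSMUSG00000060591, chr7:140954837-140955987, minus), Ifitm1 (ENSMUSG00000025491, chr7:140967221-140969825, plus), Ifitm3 (ENSMUSG00000025492, chr7:141009586-141010770, minus) and Ifitm6 (ENSMUSG00000059108, chr7:141015699-141017924, minus) follow each other on chromosome 7. Isg20 (ENSMUSG00000039236, chr7:78913424-78920396, plus) lies elsewhere on that chromosome, and Bst2 (ENSMUSG00000046718) lies at chr8:71534255-71537456 on the minus strand.

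Sequences before the transcription start were examined because the factors of the interferon pathway bind short elements there. The RefSeq windows of GRCm38.p6, from 250 bases before to 50 after the start, were found for 8 of the 10 members, which is 10 windows since Isg20 has 3. Mx1 and Mx2 had no window. The core of the interferon-stimulated response element was searched on both strands as GAAA, any 2 bases and GAAA again, and it was found in 4 of these 8 genes, against 3.99% of 27025 genes, and in 4 of their 10 windows, against 3.44% of all 32851 windows. Rsad2 and Bst2, which DMXAA raised, are shown beside Cmpk2, which it also raised and whose window held no match. Each run is the 150 bases before the start, read 5′ to 3′ on the gene's strand, with matches in capitals. Rsad2 lies at chr12:26456453-26456602, Bst2 at chr8:71537473-71537622 and Cmpk2 at chr12:26469065-26469214.
Rsad2: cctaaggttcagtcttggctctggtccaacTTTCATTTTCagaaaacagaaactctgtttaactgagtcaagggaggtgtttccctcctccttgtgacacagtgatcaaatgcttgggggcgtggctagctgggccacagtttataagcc
Bst2: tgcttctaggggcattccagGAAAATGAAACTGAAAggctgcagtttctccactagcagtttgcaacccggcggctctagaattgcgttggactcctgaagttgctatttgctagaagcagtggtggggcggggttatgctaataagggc
Cmpk2: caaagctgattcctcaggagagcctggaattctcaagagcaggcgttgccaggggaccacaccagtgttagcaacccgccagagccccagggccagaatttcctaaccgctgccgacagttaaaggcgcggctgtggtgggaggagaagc

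The Rsad2 match reads on the opposite strand, from position -120 to -111 relative to the start. The Bst2 stretch holds 2 overlapping matches, from -130 to -121 and from -124 to -115.

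Ifitm2 and Ifitm3 both held the core and differed in response, so their 30-base windows are shown with the match in capitals. The Ifitm2 match ran from -46 to -37 (window chr7:140955988-140956017, minus strand). Ifitm3 had matches from 3 to 12 (chr7:141010723-141010752) and from 20 to 29 (chr7:141010706-141010735), both just after the start.
Ifitm2: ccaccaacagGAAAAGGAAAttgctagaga
Ifitm3, first match: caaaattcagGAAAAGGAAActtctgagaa
Ifitm3, second match: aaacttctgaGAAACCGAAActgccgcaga

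The matches at Ifitm2 and in the first Ifitm3 window have the same 10 letters. No match was found in the windows of Cmpk2, Isg20, Ifitm1 or Ifitm6. The RefSeq windows of Ifitm1 and Ifitm6 lie inside the annotated genes, so the sequence before those annotated gene starts was not searched. The core of the gamma-activated site, TTCNNNGAA, which reads the same on both strands, was found in Bst2, Isg20, Ifitm3 and Ifitm6, which are 4 of these 8 genes, and in 9.55% of all genes. It shares bases with an interferon-stimulated response element match in Bst2 and in Ifitm3. Matches describe letters and were not tested for binding.

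Libraries held between 15657347 and 18912887 counts. The 4 BMDM libraries numbered 3 stood apart and were described separately. Their summed level of 10 fibroblast markers was 13252 to 20366 CPM (counts scaled to the library total), against 40.5 to 530 in the other 8 BMDM libraries. Their 10 macrophage markers summed to 42.5 to 71.6 CPM against 10475 to 22385, with 2 to 4 markers at 0, and their 7 leukocyte markers summed to 0.556 to 2.14 CPM against 3265 to 4448, with up to 5 at 0. Macrophage markers thus went with the BMDM label in the libraries numbered 1 and 2 and not in those numbered 3. Of those, the WT libraries numbered 2 had 498 to 530 CPM of fibroblast markers, with none of the 10 at 0, and the other 6 had 40.5 to 74.5. In BMDCs the 10 dendritic cell markers summed to 10023 to 20357 CPM, against 169 to 636 in the BMDM libraries numbered 1 and 2. The BMDC CRE libraries numbered 2 had 189 to 415 CPM of 9 neutrophil and precursor markers against 11.1 to 35.0 in the other BMDC libraries, and 2067 to 2202 CPM of macrophage markers against 6086 to 9121. Most of these macrophage sums was Lyz2, at 1177 to 1296 CPM there against 4928 to 8108. Adgre1 was at 125 to 195 against 139 to 374, and Csf1r, at 194 to 230, lay within the 85.9 to 308 of the others.

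Levels below are in FPKM as deposited (counts scaled by the authors to gene length and library size), which can be compared between genes. Differences are log2 fold changes from edgeR's quasi-likelihood test on raw counts, with the standard error (SE), and a gene was called at a Benjamini-Hochberg adjusted p under 0.05. BMDM fits used the 8 libraries numbered 1 and 2, so each BMDM group had n = 2, and BMDC fits used all 12 libraries, so each group had n = 3. The BMDM CRE libraries 1 and 2 lay at a root mean square log2 CPM difference of 0.157 in control and 0.175 under DMXAA. The BMDM WT libraries 1 and 2 lay at 0.718 and 0.693. How far the CRE libraries are independent cultures is not labelled, so their spread may be mostly technical. Fits within a cell type share the control and DMXAA libraries between contrasts, so their results are not independent of each other. None of these reported fits had a term for the library number. Same-numbered control and DMXAA libraries nevertheless deviated together in WT BMDMs and in both labels of BMDCs. Tested genes had to reach an FPKM of 1 in 2 BMDM or 3 BMDC libraries. In BMDMs 9 of 10 members passed, 5 of which also passed on controls alone, and in BMDCs all 10 passed, 7 of them on controls alone. Mx1, Mx2, Isg20 and Ifitm6 in BMDMs, and Mx2, Rsad2 and Isg20 in BMDCs, were tested only because their DMXAA libraries counted toward the filter.

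The values of Tmem173, which Cre targets, bear on the labels and come first. In BMDMs its FPKM was 14.7 and 9.91 in WT control, 10.4 and 8.76 in CRE control, 31.8 and 22.8 in WT DMXAA, and 9.12 and 10.1 in CRE DMXAA. It was lower in CRE than in WT cells under DMXAA (log2 -1.45 ± 0.24 SE, edgeR adjusted p = 0.009201), and in control the difference of -0.39 ± 0.24 did not pass (edgeR adjusted p = 0.7765). DMXAA raised Tmem173 in WT BMDMs (1.04 ± 0.24, edgeR adjusted p = 0.01347), and in CRE BMDMs the change of -0.02 ± 0.24 did not pass (edgeR adjusted p = 0.9729). The difference between these responses did not pass (-1.06 ± 0.33, edgeR adjusted p = 0.1404). In BMDCs Tmem173 FPKM overlapped between labels, at 28.8 to 51.6 in WT and 19.7 to 36.8 in CRE control, and neither the control nor the DMXAA difference passed (log2 -0.43 ± 0.28 SE in each, edgeR adjusted p = 1.0 in each). Gene counts do not separate the floxed exons from the rest of the transcript, so they do not measure deletion itself.

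DMXAA raised 8 of the 9 tested members in WT BMDMs, against 18.4% of 11569 genes tested that rose and 39.2% that changed in either direction. In CRE BMDMs it raised 7 of 9, against 7.19% of genes that rose and 9.88% that changed, and 5 of 9 when either CRE control library was left out. In BMDCs it raised the same 7 members in both labels, Mx1, Mx2, Rsad2, Cmpk2, Bst2, Isg20 and Ifitm3, against 16.9% of 12126 genes that rose (32.1% changed) in WT and 14.0% (25.4% changed) in CRE cells. In both labels of BMDMs, Rsad2, Cmpk2, Bst2 and Ifitm3 were the raised members that also passed the filter on controls alone. In BMDCs they were Mx1, Cmpk2, Bst2 and Ifitm3. The other raised members were tested only because of their DMXAA libraries, which favoured a rise in these counts. In such bulk RNA, fewer responding cells and less RNA per cell cannot be told apart. Together the 10 genes took between 0.0218% and 0.0797% of all counts in the 12 control libraries, the highest being the WT BMDM control numbered 3. Under DMXAA they took 0.218% and 0.189% in the BMDM libraries numbered 3. In the others they took 3.37% and 2.66% in WT BMDMs under DMXAA, 0.747% and 0.731% in CRE BMDMs, and 0.81% to 1.55% in BMDCs.

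**Figure D1:**
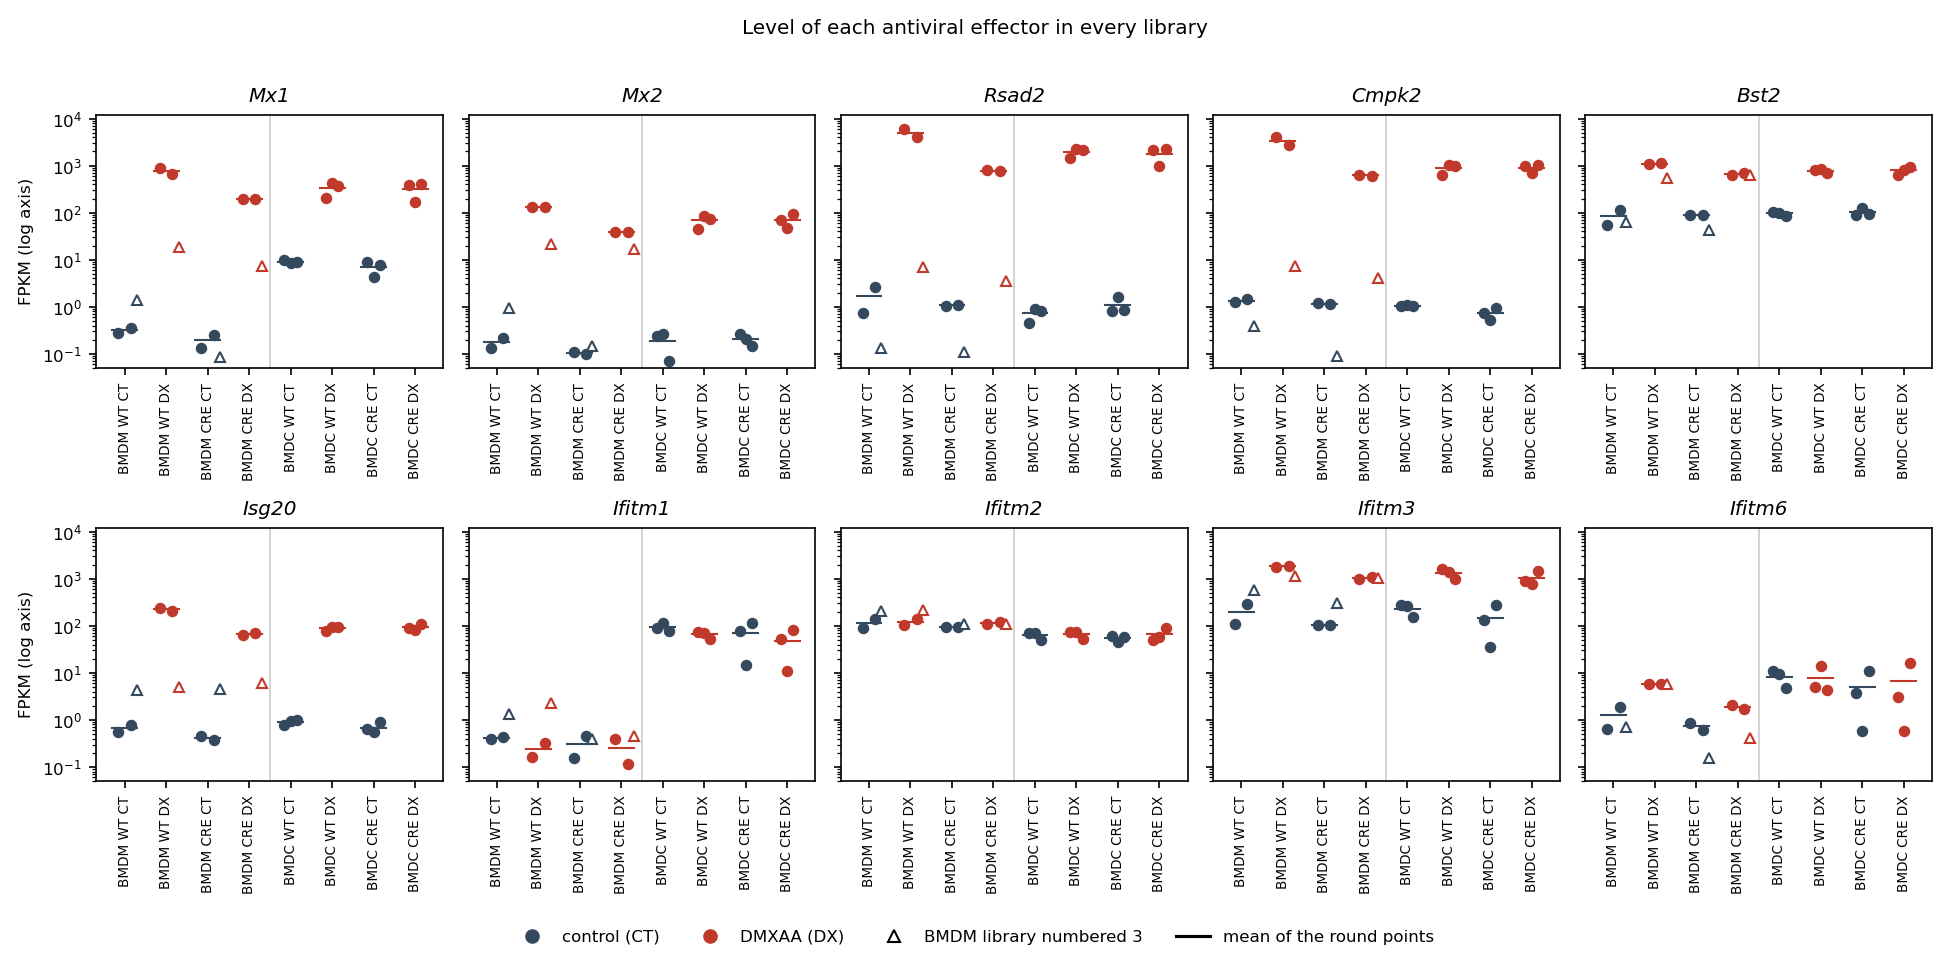
Levels of the 10 members in FPKM (log axis, 1 panel per gene) in the 8 groups. Round points are libraries, short lines are group means, and open triangles are the BMDM libraries numbered 3. Rsad2 reached 5890 in WT BMDMs under DMXAA, whereas Ifitm1 stayed under 0.5 in all 8 BMDM libraries numbered 1 and 2 and lay between 11.1 and 116 in BMDCs.

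Mx1 FPKM was 0.285 and 0.363 in WT control BMDMs and 873 and 658 under DMXAA. In CRE BMDMs it was 0.133 and 0.253 in control and 196 and 194 under DMXAA. All DMXAA libraries lay above all controls, and both CRE DMXAA libraries lay below both WT DMXAA libraries. The rise was 11.08 ± 0.34 on the log2 scale in WT (edgeR adjusted p = 7.792e-06) and 9.93 ± 0.33 in CRE BMDMs (edgeR adjusted p = 2.877e-05). These BMDM controls held only 9 to 29 counts each, so the folds rest on few control reads. In BMDCs, Mx1 FPKM was already 9.94, 8.58 and 8.96 in WT control and 9.10, 4.27 and 7.86 in CRE control. Under DMXAA it was 201, 420 and 367 in WT and 391, 170 and 401 in CRE BMDCs, so the groups of the 2 labels overlapped. The BMDC rise was 5.15 ± 0.45 in WT (edgeR adjusted p = 1.185e-05) and 5.48 ± 0.46 in CRE cells (edgeR adjusted p = 9.189e-06). The resting level of Mx1 was the member's main difference between the cell types.

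Mx2, its neighbour, started low in both cell types. Its FPKM was 0.135 and 0.223 in WT control BMDMs, and 131 and 134 under DMXAA. In CRE BMDMs it was 0.108 and 0.0976 in control and 38.4 and 38.0 under DMXAA, below both WT libraries. These controls held only 7 to 17 counts each, so the fold rests on few control reads. On the log2 scale Mx2 rose by 9.40 ± 0.24 in WT (edgeR adjusted p = 7.792e-06) and 8.49 ± 0.24 in CRE BMDMs (edgeR adjusted p = 2.339e-05). In BMDCs Mx2 FPKM was 0.0704 to 0.271 across the 6 controls, 44.1, 86.8 and 74.0 in WT DMXAA, and 70.5, 46.5 and 92.4 in CRE DMXAA. The groups of the 2 labels again overlapped, and the log2 rise was 8.45 ± 0.52 in WT and 8.35 ± 0.51 in CRE BMDCs (edgeR adjusted p = 8.322e-07 and 1.014e-06).

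The coding sequences of Mx1 and Mx2 in the GRCm38 annotation are 79.1% identical, with a longest shared run of 140 bases. Short reads from such stretches could count for either gene or for none, depending on the authors' settings for reads with several matches, so their levels share that uncertainty.

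Rsad2, which encodes viperin, had the highest mean level of the members under DMXAA in WT BMDMs and in both labels of BMDCs. Its FPKM was 0.757 and 2.60 in WT control BMDMs and 5890 and 4055 under DMXAA. CRE BMDMs had 1.06 and 1.12 in control and 794 and 758 under DMXAA. The WT and CRE libraries did not overlap under DMXAA. Rsad2 rose by 11.41 ± 0.73 on the log2 scale in WT (edgeR adjusted p = 0.0001031) and 9.45 ± 0.68 in CRE BMDMs (edgeR adjusted p = 0.0003679). In BMDCs its FPKM was 0.46, 0.904 and 0.834 in WT control and 0.812, 1.63 and 0.864 in CRE control. Under DMXAA it was 1460, 2266 and 2124 in WT and 2171, 979 and 2231 in CRE BMDCs, so the 2 labels overlapped. The BMDC rise was 11.35 ± 0.58 in WT (edgeR adjusted p = 2.635e-07) and 10.65 ± 0.57 in CRE cells (edgeR adjusted p = 3.784e-07).

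Cmpk2, the divergent neighbour of Rsad2, followed a like course. Its FPKM was 1.27 and 1.45 in WT control BMDMs and 4086 and 2690 under DMXAA, against 1.18 and 1.15 and then 628 and 613 in CRE BMDMs. The CRE DMXAA libraries lay well below the WT ones. Cmpk2 rose by 11.17 ± 0.30 on the log2 scale in WT (edgeR adjusted p = 7.792e-06) and 9.03 ± 0.28 in CRE BMDMs (edgeR adjusted p = 2.339e-05). In BMDCs its FPKM was 1.03 to 1.10 in WT and 0.522 to 0.925 in CRE controls. Under DMXAA it was 646, 1040 and 979 in WT BMDCs and 994, 698 and 1039 in CRE BMDCs, with overlap. In BMDCs it rose by 9.68 ± 0.36 in WT and 10.26 ± 0.37 in CRE BMDCs (edgeR adjusted p = 3.588e-08 and 2.474e-08).

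Isg20, the exonuclease, had an FPKM of 0.553 and 0.765 in WT control BMDMs and of 242 and 204 under DMXAA. CRE BMDMs had 0.451 and 0.379 in control and 64.9 and 69.7 under DMXAA. Both CRE DMXAA libraries lay below both WT ones, and the log2 rise was 8.28 ± 0.23 in WT and 7.31 ± 0.23 in CRE BMDMs (edgeR adjusted p = 7.792e-06 and 2.339e-05). The BMDM controls held only 14 to 30 Isg20 counts each, so these folds also rest on few control reads. In BMDCs Isg20 was at 0.541 to 0.985 FPKM in the 6 controls, at 78.1, 96.3 and 96.3 in WT DMXAA and at 88.6, 80.2 and 109 in CRE DMXAA. The log2 rise was 6.60 ± 0.24 in WT and 7.04 ± 0.25 in CRE BMDCs (edgeR adjusted p = 3.588e-08 and 2.474e-08).

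Bst2 and Ifitm3 differed from these 5 genes in their control BMDMs, which already expressed them. Bst2 FPKM was 54.9 and 113 in WT control BMDMs and 1095 and 1120 under DMXAA, and 91.5 and 88.2 and then 632 and 687 in CRE BMDMs. The CRE controls lay between the 2 WT controls, and the higher WT control is the library numbered 2, which held more fibroblast markers, whose part in this value was not tested. Bst2 rose by 3.61 ± 0.34 on the log2 scale in WT (edgeR adjusted p = 0.0004192) and 2.85 ± 0.33 in CRE BMDMs (edgeR adjusted p = 0.00316). The CRE call was lost without CRE control library 1 (edgeR adjusted p = 0.05207) or 2 (0.05498). In BMDCs Bst2 FPKM was 85.2 to 123 in the 6 controls, 789, 844 and 694 in WT DMXAA, and 637, 813 and 953 in CRE DMXAA. The log2 rise was 2.99 ± 0.20 in WT and 2.95 ± 0.20 in CRE BMDCs (edgeR adjusted p = 1.272e-06 and 1.551e-06).

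Ifitm3 FPKM was 107 and 291 in WT control BMDMs and 1736 and 1899 under DMXAA. CRE BMDMs had 101 and 106 in control and 1001 and 1067 under DMXAA. The WT control numbered 2 again stood above the other controls. On the log2 scale Ifitm3 rose by 3.07 ± 0.44 in WT (edgeR adjusted p = 0.002368) and 3.29 ± 0.45 in CRE BMDMs (edgeR adjusted p = 0.006604). The CRE call was lost without CRE control library 1 (edgeR adjusted p = 0.09085) or 2 (0.09024). In BMDCs Ifitm3 FPKM was 274, 263 and 150 in WT control and 1592, 1379 and 996 under DMXAA. In CRE BMDCs it was 130, 35.4 and 271 in control and 895, 779 and 1447 under DMXAA. The lowest control was the CRE library numbered 2, which held less Lyz2 and more neutrophil transcripts, whose part in this value was not tested. The log2 rise was 2.50 ± 0.58 in WT (edgeR adjusted p = 0.006435) and 2.81 ± 0.58 in CRE BMDCs (edgeR adjusted p = 0.004719). Without the CRE libraries numbered 2, DMXAA still raised 7 members in each label of BMDCs, and 0 differed between labels.

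In the reported fits Ifitm2 did not pass the test for a response to DMXAA. Its FPKM was 91.4 and 138 in WT control BMDMs, 102 and 140 under DMXAA, 93.5 and 92.2 in CRE control and 108 and 117 under DMXAA. Its log2 difference was -0.03 ± 0.24 in WT BMDMs, with a 95% interval from -0.61 to 0.54 (edgeR adjusted p = 0.9348). In CRE BMDMs it was 0.26 ± 0.24 (edgeR adjusted p = 0.5337). When only the 4 CRE libraries were fitted, the Ifitm2 value of 0.26 passed the test (edgeR adjusted p = 0.002807), as did 55.6% of all genes. In BMDCs Ifitm2 FPKM was 69.4, 69.2 and 49.9 in WT control and 74.0, 72.6 and 52.0 under DMXAA, and neither label passed (log2 0.05 ± 0.24 in WT and 0.26 ± 0.24 in CRE BMDCs, edgeR adjusted p = 0.9042 and 0.4995). With or without the agonist, Ifitm2 lay between 91.4 and 140 FPKM in BMDMs and between 44.7 and 90.9 in BMDCs.

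Ifitm1 was a BMDC transcript in these data. Its FPKM was 0.113 to 0.461 in the 8 BMDM libraries numbered 1 and 2, which held 2 to 10 counts each, so it was not tested there. In BMDCs it was 87.9, 112 and 77.0 in WT control and 74.1, 70.0 and 53.3 under DMXAA. In CRE BMDCs it was 78.8, 14.9 and 116 in control and 53.4, 11.1 and 81.6 under DMXAA. Each DMXAA library lay below the control library of the same label and number. The log2 difference was -0.52 ± 0.68 in WT and -0.54 ± 0.69 in CRE BMDCs. It did not pass in the reported fit, which left the library number out (edgeR adjusted p = 0.6318 and 0.6377). With a block for the replicate number within each label, Ifitm1 fell by 0.51 in WT and by 0.53 in CRE BMDCs (edgeR adjusted p = 0.004051 and 0.004896).

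Ifitm6 was low in every group. In BMDMs its FPKM was 0.649 and 1.89 in WT control, 5.77 and 5.66 under DMXAA, 0.865 and 0.613 in CRE control and 2.06 and 1.71 under DMXAA. Ifitm6 rose by 2.05 ± 0.52 on the log2 scale in WT BMDMs (edgeR adjusted p = 0.02065), and the value of 1.32 ± 0.54 in CRE BMDMs did not pass (edgeR adjusted p = 0.1785), although it did when only the 4 CRE libraries were fitted, in which 55.6% of genes passed (edgeR adjusted p = 0.0108). The WT call was lost without WT DMXAA library 1 or 2 (edgeR adjusted p = 0.05946 and 0.05205). In BMDCs it ranged from 0.569 to 16.2 FPKM, with both CRE libraries numbered 2 under 1, and the log2 difference was -0.12 ± 1.04 in WT and 0.35 ± 1.05 in CRE BMDCs (edgeR adjusted p = 0.9475 and 0.8639). With a block for the replicate number within each label, Ifitm6 was at -0.22 ± 0.31 in WT and 0.14 ± 0.36 in CRE BMDCs and again did not pass (edgeR adjusted p = 0.5943 and 0.7875).

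Coding sequences of Ifitm1, Ifitm2 and Ifitm3 are 79.3% to 81.4% identical to each other in the GRCm38 annotation, with shared runs of up to 69 bases. Ifitm6 is 61.9% to 66.4% identical to them, with shared runs of at most 16 bases. Reads from the shared runs could have been split or dropped by the authors' counting, so the separate levels of Ifitm1, Ifitm2 and Ifitm3 carry that uncertainty. The annotation also places the gene model Gm45717 over Ifitm2, and whether reads were assigned by strand is not given in the sources used here.

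**Figure D2:**
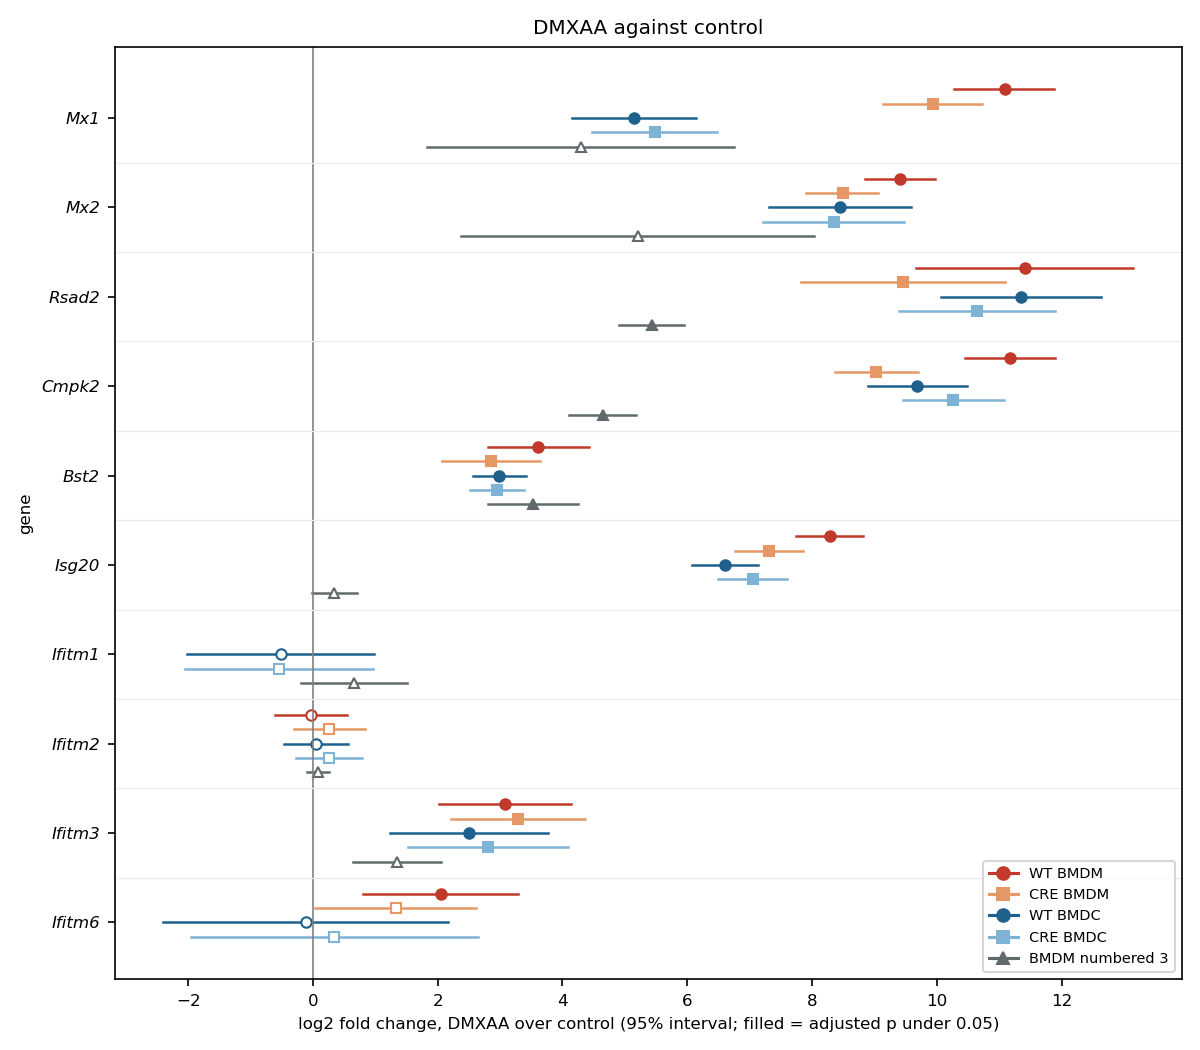
Response to DMXAA of the 10 members as log2 fold change over control, with 95% intervals, in WT and CRE BMDMs, WT and CRE BMDCs and the BMDM libraries numbered 3. Filled points passed the test. Mx1, Mx2, Rsad2, Cmpk2 and Isg20 rose by 5.15 to 11.41 in the 4 comparisons of BMDMs and BMDCs, and Bst2 and Ifitm3 by 2.50 to 3.61, while Ifitm2 lay between -0.03 and 0.26.

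The genotype labels were then compared within each treatment. Under DMXAA, 5 of the 9 tested members were lower in CRE than in WT BMDMs, against 9.96% of genes that were lower and 19.2% that differed in either direction. Cmpk2 differed by -2.40 ± 0.20 on the log2 scale (edgeR adjusted p = 0.001376), Rsad2 by -2.63 ± 0.50 (edgeR adjusted p = 0.01511), Mx1 by -1.92 ± 0.22 (edgeR adjusted p = 0.002869), Mx2 by -1.75 ± 0.16 (edgeR adjusted p = 0.001577) and Isg20 by -1.68 ± 0.16 (edgeR adjusted p = 0.00175). In control BMDMs these 5 members were all under 3 FPKM. Bst2 (-0.70, 95% interval -1.43 to 0.03), Ifitm3 (-0.77, -1.75 to 0.21) and Ifitm6 (-1.55 ± 0.51 SE) did not pass (edgeR adjusted p = 0.1643, 0.2415 and 0.08127), although both CRE libraries lay below both WT libraries for each of them. Fitted on the DMXAA libraries alone, they passed (edgeR adjusted p = 0.02679 for Bst2, 0.02539 for Ifitm3 and 0.03976 for Ifitm6), as did 15.6% of genes. Ifitm2 differed by -0.05 (95% interval -0.63 to 0.52, edgeR adjusted p = 0.8951).

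Leaving out single libraries ended some of these calls. Mx1 did not pass without CRE DMXAA library 1 (log2 -1.95, edgeR adjusted p = 0.05223) or 2 (-1.91, 0.05375). Rsad2 did not pass without CRE DMXAA library 1 (edgeR adjusted p = 0.1198) or 2 (0.1242) or WT DMXAA library 1 (0.05229), at log2 values from -2.68 to -2.35. Cmpk2, Mx2 and Isg20 passed each time. All 5 kept their direction in these refits.

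In control BMDMs 0 of 9 members differed between labels, against 0.0432% of genes (5 genes, and 782 at an unadjusted p under 0.05). By edgeR 1 member, Isg20 (log2 -0.71), had an unadjusted p under 0.05, and DESeq2 and limma each called 0 members. The control differences ran from -0.98 for Ifitm3 to 0.06 for Bst2. Without WT control library 1 the Ifitm3 difference was -1.54 and passed (edgeR adjusted p = 0.007147), as did 1.85% of genes. That comparison set the WT library numbered 2, with its fibroblast markers, alone against the CRE controls.

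The response itself was compared between labels by an interaction term. It was called in BMDMs for 1 of 9 members, Cmpk2, at -2.14 ± 0.30 on the log2 scale (edgeR adjusted p = 0.02178), against 2.28% of genes with a negative term and 3.65% with either sign. The call was lost when any 1 of the 4 CRE libraries was left out (log2 -2.18 to -2.12, edgeR adjusted p = 0.1463 to 0.1595). Rsad2 (-1.95, edgeR adjusted p = 0.189), Mx1 (-1.15, edgeR adjusted p = 0.1849), Isg20 (-0.97, edgeR adjusted p = 0.1371) and Mx2 (-0.91, edgeR adjusted p = 0.2893) did not pass. Without both WT libraries numbered 2, which left 1 library in each WT group so that the CRE libraries alone set the spread, 6 of 9 members passed, and so did 46.5% of all genes against 3.65% before. Rsad2 was then at -3.36, Bst2 at -1.36 and Ifitm3 at -0.62, the last from 0.22 with all 8 libraries. Leaving out the WT control library numbered 2 alone also turned the sign for Ifitm3. A smaller Ifitm3 response in CRE BMDMs thus depended on leaving out that control library.

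In BMDCs 0 of 10 members differed between labels under DMXAA, in control or in response, and 0 of 12126 genes were called in these comparisons by edgeR (60 to 107 at an unadjusted p under 0.05, and 0 or 1 by DESeq2). At an unadjusted p under 0.05 the members numbered 0 in each, and DESeq2 and limma also called 0 members. Under DMXAA, the difference was 0.04 for Cmpk2 (95% interval -0.50 to 0.58), 0.05 for Isg20 (-0.36 to 0.46), 0.06 for Bst2 (-0.35 to 0.46), 0.04 for Mx2 (-0.74 to 0.82), -0.04 for Mx1 (-0.86 to 0.79) and -0.11 for Rsad2 (-0.94 to 0.71). The differences measured in BMDMs for Mx1, Mx2, Rsad2, Cmpk2 and Isg20 all lie outside these BMDC intervals. Ifitm3 at -0.33 (-1.53 to 0.87) and Ifitm1 at -0.42 (-1.92 to 1.09) were measured less precisely. Whether the genotype effect differed between BMDMs and BMDCs was not tested as such, and Tmem173 itself did not differ by the test between the labels in BMDCs. Some BMDC libraries with different numbers and labels were nearer each other than any same-label pair of one treatment. WT 2 with CRE 3, and WT 3 with CRE 1, lay at a root mean square log2 CPM difference of 0.168 to 0.183, above sampling noise. Same-label BMDC pairs lay at 0.290 to 0.759. What the near libraries share is not labelled, and its part in the genotype comparison was not tested.

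**Figure D3:**
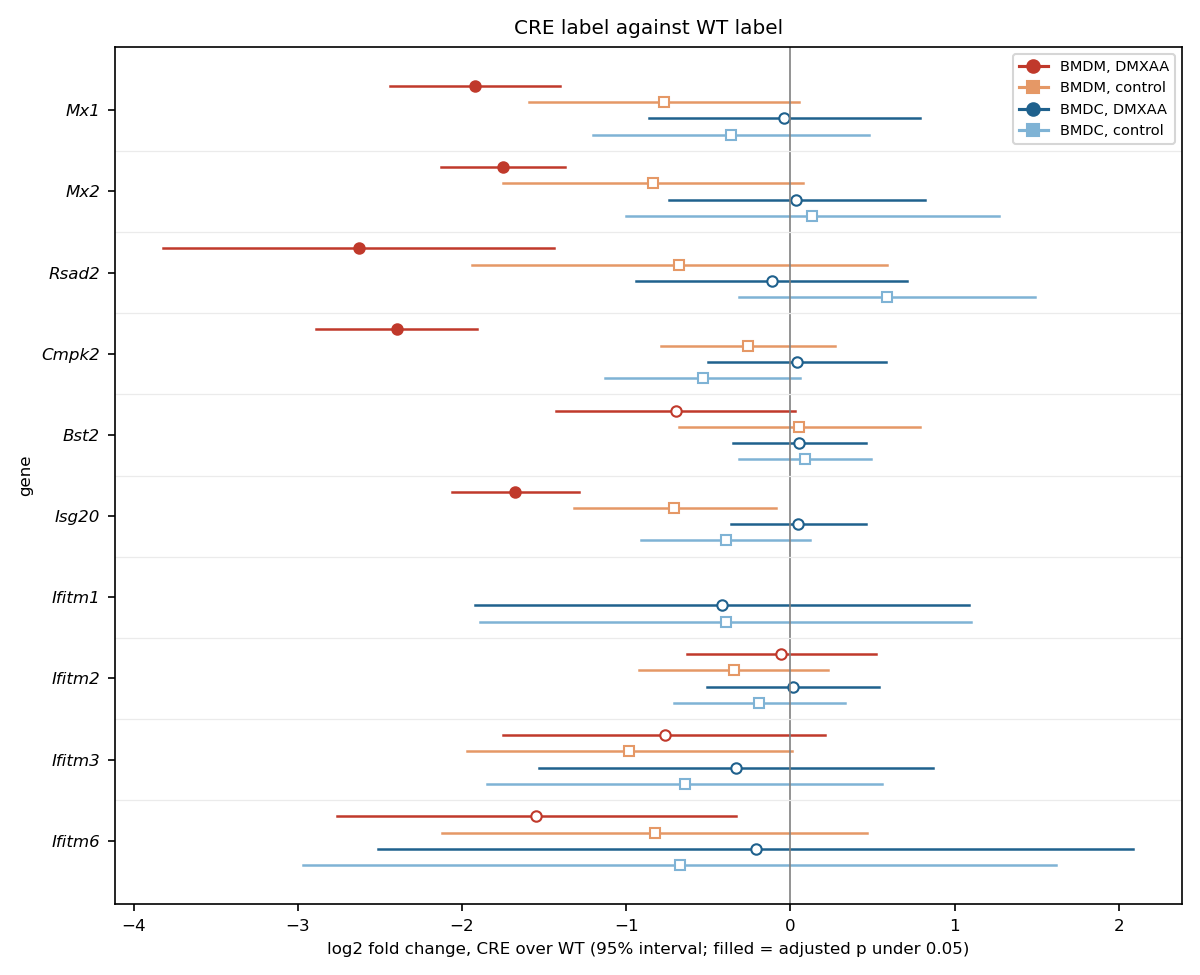
Difference between CRE and WT labels for the 10 members as log2 fold change with 95% intervals, in BMDMs and BMDCs, under DMXAA and in control. Filled points passed the test. Under DMXAA in BMDMs, Mx1, Mx2, Rsad2, Cmpk2 and Isg20 lay between -2.63 and -1.68, and in BMDCs no point was filled.

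WT BMDCs were compared with WT BMDMs in a fit over 20 libraries, those of BMDMs numbered 1 and 2 and all of BMDCs. In control, 2 members were higher in BMDCs, against 13.1% of 13368 genes, and 1 was lower, against 15.4% (28.5% differed either way). Mx1 was higher by 4.75 ± 0.51 on the log2 scale (edgeR adjusted p = 5.313e-06) and Ifitm1 by 7.71 ± 1.06 (edgeR adjusted p = 5.948e-05). Ifitm2 was lower by 0.92 (log2 -0.92 ± 0.26, edgeR adjusted p = 0.01489), a call lost without WT control BMDM library 2 (-0.56, edgeR adjusted p = 0.2295) or WT control BMDC library 3 (-0.76, edgeR adjusted p = 0.07037). Rsad2 (-1.25) and Ifitm6 (2.63 ± 1.18 SE) did not pass (edgeR adjusted p = 0.0633 and 0.1107). Without WT control BMDM library 1, Rsad2 passed at -1.86 (edgeR adjusted p = 0.01083), and without library 2, Bst2 passed at 0.79 (edgeR adjusted p = 0.03642).

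Under DMXAA the order was turned for Mx1. It was lower in BMDCs by a log2 difference of -1.16 ± 0.37 (edgeR adjusted p = 0.02779), as were Rsad2 (-1.30 ± 0.44, edgeR adjusted p = 0.03582), Cmpk2 (-1.88 ± 0.25, edgeR adjusted p = 4.964e-05), Isg20 (-1.25 ± 0.19, edgeR adjusted p = 0.0001398) and Ifitm2 (-0.82 ± 0.26, edgeR adjusted p = 0.0273). That is 5 members lower, against 15.3% of genes (30.6% differed either way), and 1 higher, Ifitm1 at 8.07 ± 1.16 (edgeR adjusted p = 9.788e-05), against 15.3%. Mx2 was just outside the threshold (-0.90 ± 0.33, edgeR adjusted p = 0.05218) and passed in 6 other settings and without BMDC WT DMXAA library 2 (edgeR adjusted p = 0.03587). Those settings included DESeq2 (adjusted p = 0.03142) and median of ratios scaling (edgeR adjusted p = 0.04506). Bst2 (-0.46) and Ifitm3 (-0.41) did not pass (edgeR adjusted p = 0.1668 and 0.6252). The Cmpk2, Isg20 and Ifitm1 calls remained when each of the 5 libraries was left out in turn. The Mx1 call was lost without BMDM library 1 (-0.96, edgeR adjusted p = 0.1764) or BMDC library 1 (-0.91, 0.09221). The Ifitm2 call was lost without BMDM library 2 (-0.57, 0.2195) or BMDC library 3 (-0.70, 0.08173), and the Rsad2 call without any 1 of the 5 (-1.54 to -1.02, edgeR adjusted p = 0.05251 to 0.2244).

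The response to DMXAA was smaller in WT BMDCs than in WT BMDMs for 3 of 10 members, against 1.73% of genes (2.62% with either sign). The log2 difference between the responses was -5.91 ± 0.62 for Mx1 (edgeR adjusted p = 8.217e-05), -1.66 ± 0.31 for Isg20 (edgeR adjusted p = 0.009029) and -1.47 ± 0.37 for Cmpk2 (edgeR adjusted p = 0.04941). For Mx1 this joins a control level that was higher in BMDCs by 4.75 and a DMXAA level with a difference of -1.16. The WT control BMDMs held only 22 and 29 Mx1 counts and 21 and 30 Isg20 counts. The Isg20 call was lost without WT control BMDM library 1 (-1.46, edgeR adjusted p = 0.05189). The Cmpk2 call was lost without any 1 of 8 of the 10 libraries (log2 -1.61 to -1.20, edgeR adjusted p = 0.05871 to 0.2325). It held without WT DMXAA BMDM library 2 or WT DMXAA BMDC library 2. For Rsad2 the difference was -0.05 (95% interval -1.51 to 1.42), so no difference in its response was detected, although its DMXAA level was lower in BMDCs.

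**Figure D4:**
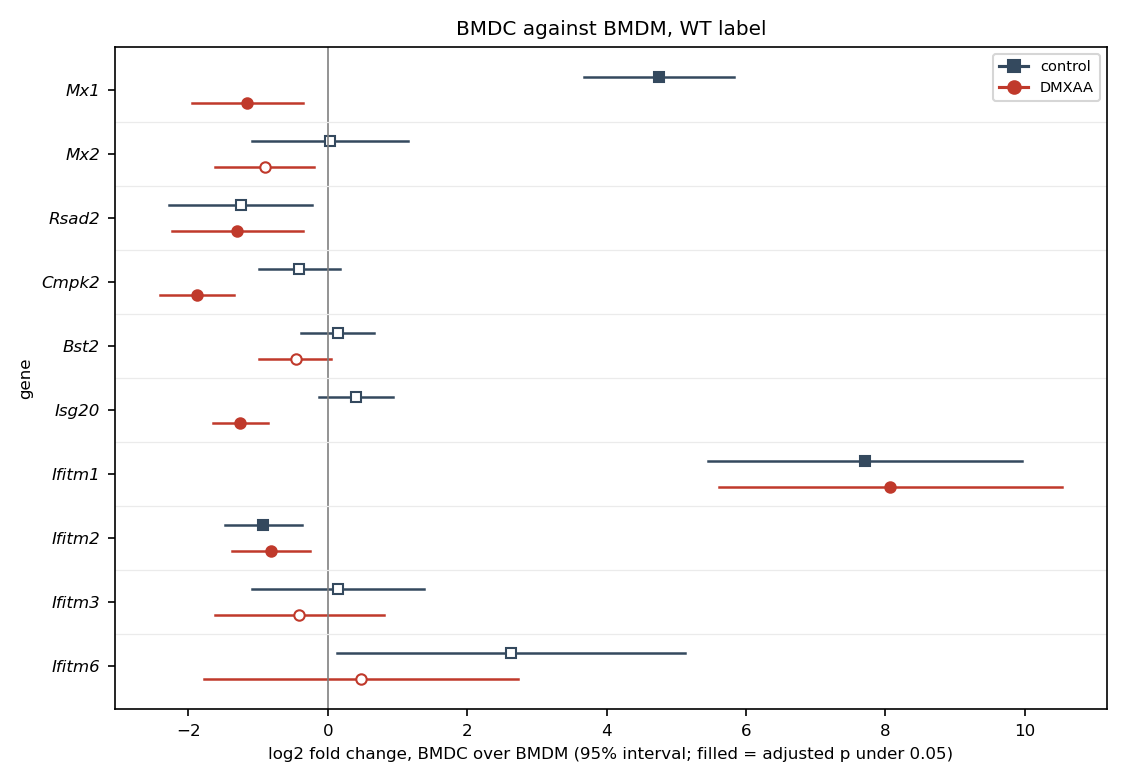
Difference between WT BMDCs and WT BMDMs (BMDC over BMDM) for the 10 members as log2 fold change with 95% intervals, in control and under DMXAA. Filled points passed the test. Mx1 lay at 4.75 in control and at -1.16 under DMXAA, and Ifitm1 at 7.71 and 8.07.

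In the BMDM libraries numbered 3, with their fibroblast transcripts, there was 1 library per group, and DMXAA was compared over both labels. That fit of 4 libraries left 1 residual degree of freedom, so its p-values lean on the spread of other genes. Of the 9 members tested there, 4 passed the filter on controls alone. Rsad2 and Cmpk2 were not among them, and they were tested because their DMXAA libraries reached an FPKM of 1. Rsad2 FPKM was 0.136 in WT and 0.109 in CRE control and 7.14 and 3.48 under DMXAA. Cmpk2 FPKM was 0.384 and 0.0907 in control and 7.47 and 4.09 under DMXAA, and Bst2 FPKM was 62.5 and 42.2 in control and 554 and 625 under DMXAA. These 3 of the 9 tested members rose, against 4.62% of 11073 genes that rose (7.90% changed), by 5.43 ± 0.23 for Rsad2 (edgeR adjusted p = 6.506e-07), 4.64 ± 0.24 for Cmpk2 (edgeR adjusted p = 2.162e-06) and 3.52 ± 0.24 for Bst2 (edgeR adjusted p = 0.01222). The DMXAA levels of Rsad2 and Cmpk2 were 3.48 to 7.47 FPKM here and at least 613 in the BMDM libraries numbered 1 and 2, and that difference was not tested.

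Mx1 FPKM went from 1.38 and 0.0873 to 18.6 and 7.27 in these libraries, and Mx2 FPKM from 0.944 and 0.144 to 21.7 and 17.3. The log2 values of 4.29 ± 0.60 and 5.21 ± 0.63 did not pass (edgeR adjusted p = 0.1144 and 0.1131), and DESeq2 called 6 of the 9 members in the same libraries. Ifitm3 was at 580 and 312 FPKM in control and at 1133 and 1018 under DMXAA (log2 1.35 ± 0.23, edgeR adjusted p = 0.07608). Isg20 was at 4.35 and 4.54 in control and 5.11 and 6.02 under DMXAA, a log2 difference of 0.34 (95% interval -0.02 to 0.70, edgeR adjusted p = 0.2432). Isg20 thus stood above its BMDM control level of 0.379 to 0.765 before treatment, while its DMXAA level was far under the 64.9 to 242 FPKM of the other BMDM libraries. Ifitm1 (log2 0.66) and Ifitm2 (0.08) did not pass (edgeR adjusted p = 0.3339 and 0.5913), and Ifitm6 was at 0.698 and 0.157 FPKM in control and 5.82 and 0.406 under DMXAA and was not tested.

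Ifitm1, Ifitm2 and, outside WT BMDMs, Ifitm6 were not called as raised in the reported fits. Mx1, Mx2, Rsad2, Cmpk2, Bst2, Isg20 and Ifitm3 rose in both cell types beside other antiviral effectors. Of 22 such genes listed, 21 were tested in BMDMs and in BMDCs. In WT BMDMs 20 of 21 rose, against 18.4% of all genes tested, with a median log2 change of 4.53 against -0.079 for all genes. In CRE BMDMs 19 rose, against 7.19% of genes (median 3.68 against -0.01). In BMDCs 19 rose in WT (median 3.74 against 0.007) and 19 in CRE cells (median 3.84 against -0.008). Of all genes tested, 16.9% rose in WT and 14.0% in CRE BMDCs. Isg15, a ubiquitin-like modifier, rose by 8.58 in WT and 8.12 in CRE BMDMs and by 9.85 and 9.74 in BMDCs. Eif2ak2, which encodes the RNA-activated kinase PKR, rose by 3.92, 3.22, 3.01 and 3.28 in the same order. The oligoadenylate synthetase genes Oas1a (4.26, 3.90, 3.97 and 3.90) and Oas2 (5.25, 4.84, 7.24 and 7.29) rose in all 4 comparisons too. Under DMXAA 13 of the 21 were lower in CRE than in WT BMDMs (median -0.95), against 9.96% of genes. In BMDCs 0 differed between labels, against 0% of genes. In the BMDM libraries numbered 3, 16 of 18 tested rose, against 4.62% of genes, with a median of 2.53 against -0.001.

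Of 13 genes of the interferon signalling chain, 10 rose in WT BMDMs (median 4.46), against 18.4% of all genes tested. In CRE BMDMs 7 rose (median 2.37), against 7.19%. In WT BMDCs 10 rose and 1 was lower (median 1.86), and in CRE BMDCs 10 rose (median 1.88). Of all genes tested, 16.9% rose and 32.1% changed in WT BMDCs, and 14.0% rose in CRE BMDCs. Under DMXAA 7 of the 13 were lower in CRE than in WT BMDMs, against 9.96% of genes. Ifnb1, the first gene listed, held 21 and 208 counts in WT and 0 and 1 in CRE BMDMs under DMXAA. In BMDCs it held 612, 400 and 634 counts in WT and 548, 237 and 528 in CRE cells under DMXAA. Of the receptor genes, Ifnar1 did not pass in WT BMDMs (log2 0.12, edgeR adjusted p = 0.5715) and neither did Ifnar2 (0.34, edgeR adjusted p = 0.08234), while the kinase gene Jak1 rose by 0.64 (edgeR adjusted p = 0.007229). The relatives of Isg20 did not rise. Isg20l2 and Aen were the 2 tested of 5 listed relatives of the Ifitm and Isg20 families. In WT BMDCs both fell, Isg20l2 by 0.65 and Aen by 0.53 on the log2 scale, and in BMDMs neither passed. Of 3 genes for proteins that act on Ifitm proteins, Zdhhc20, a palmitoyltransferase gene, fell by 0.56 in WT BMDMs (edgeR adjusted p = 0.03723) and the other two, Zmpste24 and Nedd4, did not pass.

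The clusters were examined for genes next to the members. Within 100 kb of the 10 genes lay 36 other protein-coding genes. In WT BMDMs 16 of them were tested, of which Pgghg rose by 1.21 and Ano8, near Bst2, fell by 0.84 on the log2 scale, against 39.2% of all genes that changed. In WT BMDCs 20 were tested, of which Mvb12a rose by 0.66 and 6 fell, a share near the 32.1% of all genes that changed. Sigirr, near the Ifitm cluster, fell by 2.17, and Colgalt1, Slc27a1, Ano8, Aen and Pkp3 had log2 values from -1.09 to -0.53. A gap of 2215 bp lies between Aen and Isg20, and Aen changed by -0.26 ± 0.17 in WT BMDMs (edgeR adjusted p = 0.2577), where Isg20 rose by 8.28.

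**Figure D5:**
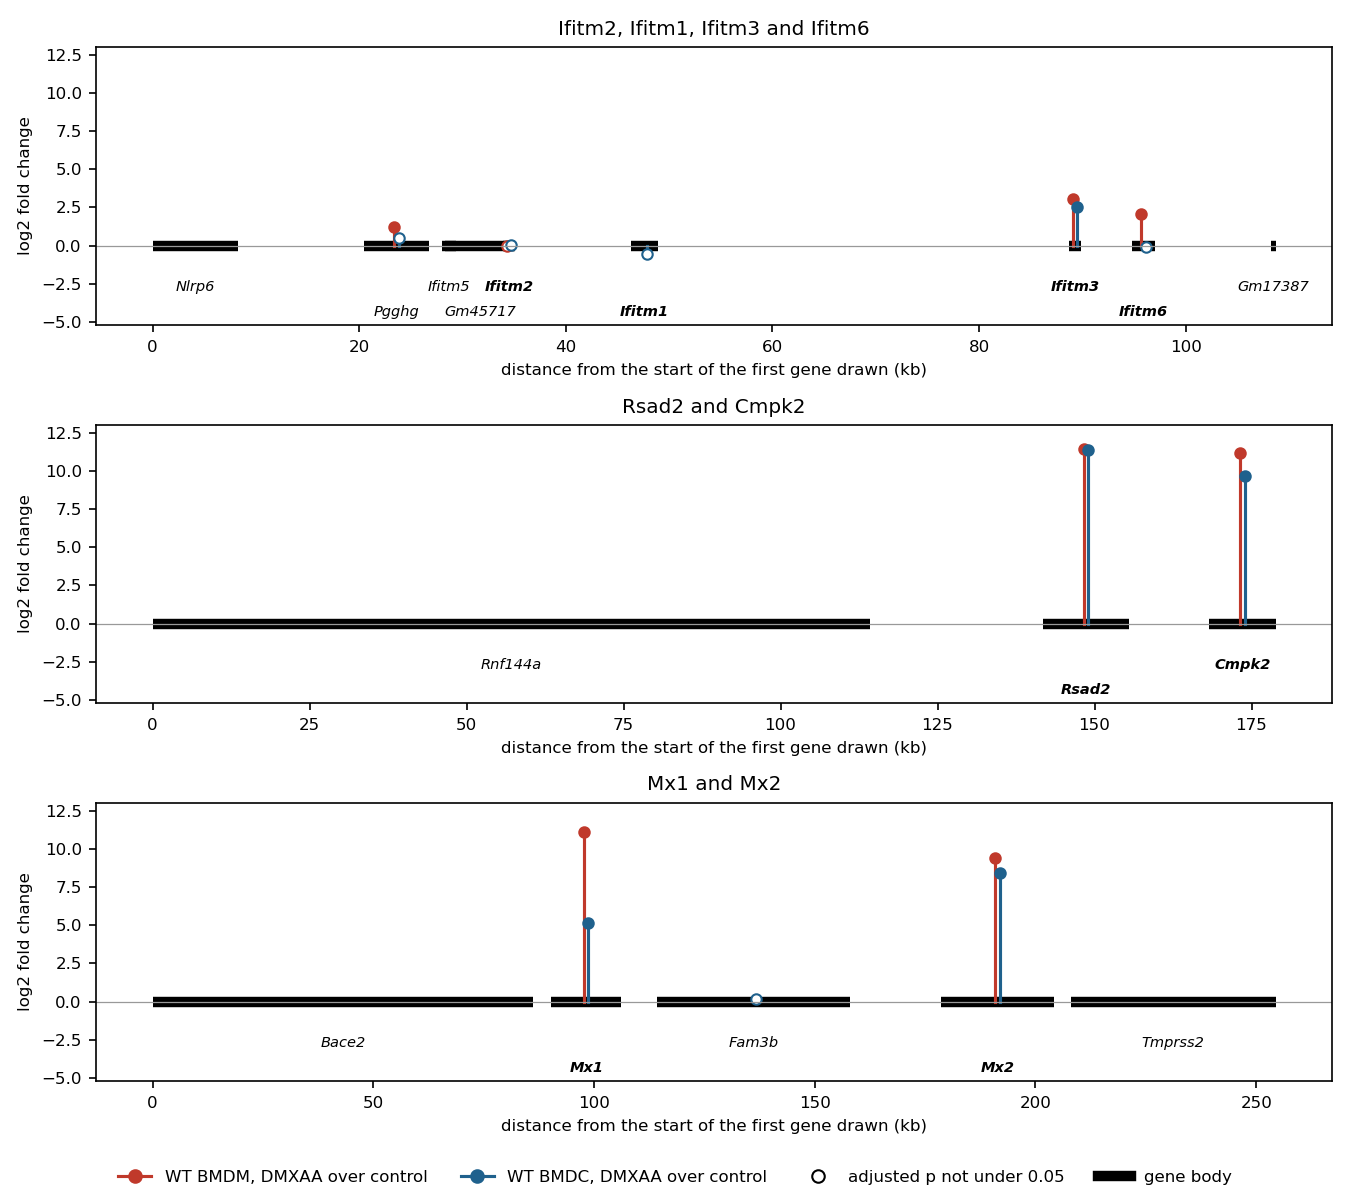
Maps of the Ifitm, Rsad2 with Cmpk2 and Mx clusters by distance in kb, with genes within 30 kb as bars and the log2 fold change under DMXAA in WT BMDMs and WT BMDCs as circles. A gene with no circle was not tested. Ifitm2 at -0.03 and Ifitm3 at 3.07 in WT BMDMs lie in the same cluster.

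The likeness of whole patterns was described by Pearson's r of log2(FPKM + 1) over the 20 libraries among 13368 genes. The points share libraries and the DMXAA contrast, so r is a description. For Rsad2 the nearest genes were Mx2 (r = 0.998), Ifit1 (r = 0.998), Cmpk2 (r = 0.997), Isg20 (r = 0.996) and Xaf1 (r = 0.996). Among the other members, Bst2 had r = 0.989, Mx1 0.946 and Ifitm3 0.913 with Rsad2, and Ifitm6 0.230, Ifitm2 0.198 and Ifitm1 -0.076. For Ifitm3 the nearest were Oas1g (r = 0.944), Gm6548 (r = 0.941), Lgals9 (r = 0.941), Xaf1 (r = 0.936) and Ddx58 (r = 0.936).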

How the data were processed

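PolyA RNA of 24 BMDM and BMDC libraries was measured. Per the labels, reads were processed with CASAVA 1.8, fastp, HISAT2 2.0.5 and featureCounts 1.5.0-p3, and builds GRCm38 and mm10 are named. The role and settings of each tool, and strandedness, are not given in the sources used here. The authors deposited raw counts per gene and FPKM values, which they scaled by gene length and an effective library size of 0.687 to 1.33 times the total count. The deposited log2 fold changes and p-values of the authors' comparisons (DESeq2 1.20.0 per the labels) were not used. All 48 per-sample columns matched a sample and 0 were left unmatched, and 0 genes lacked a name.

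Counts were scaled by TMM and tested two-sided in edgeR 4.0.16 (robust quasi-likelihood, R 4.3.3), with Benjamini-Hochberg adjustment over all genes tested. SEs and 95% intervals were derived from the fold change, its p-value and the test's degrees of freedom. Alternatives were DESeq2 1.42.0, limma 3.58.1 on log2(FPKM + 1) and log2(FPKM + 0.1), other filters, scaling, thresholds, blocks, fits on the groups compared, and leaving out libraries. Leaving out both BMDM WT or both BMDC CRE libraries numbered 2, and all BMDM libraries with a block, were chosen after seeing the data. The scripts were tested on simulated data. Total counts of 15657347 to 18912887 limit low genes, and no molecular identifiers are named, so reads may not be separate molecules.

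Same-numbered control and DMXAA libraries deviated together within a label in BMDCs (r = 0.417 to 0.682 in WT and 0.553 to 0.692 in CRE), so these numbers were read as pairs. The reported BMDC responses were nevertheless fitted without these pairs, and the block within each label was run as an alternative. What a number stands for is not labelled. Across labels in BMDCs the same numbers did not pair (r down to -0.514).

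All 10 members were named in every comparison, other lists by counts, medians and the first listed genes tested, neighbours within 100 kb, and likeness for Rsad2 and Ifitm3 by the 5 highest r. Neighbours that passed the test, and list genes beyond the first 4, were named after their values were seen. Members and lists were chosen with earlier results of these data known. Promoter windows came from RefSeq (GRCm38.p6), and coding sequences from the GENCODE annotation, where all 10 members had the deposited coordinates. Python 3.11.15, pandas 2.3.3 and matplotlib 3.10.9 were used.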

Additional observations from a re-analysis of the deposited data

Results flagged for a closer look

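Cmpk2 was marked because its response to DMXAA differed between genotype labels in BMDMs by the interaction test, at -2.14 on the log2 scale (CRE minus WT). Mx1 (-5.91), Isg20 (-1.66) and Cmpk2 (-1.47) were marked because their response differed between cell types in WT cells by the interaction test (BMDC minus BMDM). Groups of 2 or 3 libraries were too small for the check of single libraries against their group.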

How the results depend on the processing

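Beside the counts of members called below, the share of all genes called was 0% with all BMDM libraries in the 5 BMDM comparisons, 2.77% (WT), 0.832% (CRE) and 0.0162% (interaction) with the block added, and 22.5% to 63.3% without the WT libraries numbered 2. In WT BMDMs (8 reported) 0 were called with all BMDM libraries, of which 8 had an unadjusted p under 0.05, and 3 with a block for the number within each label, and in CRE BMDMs (7 reported) 0, 7 and 1 in the same order. For CRE against WT under DMXAA in BMDMs (5 reported), 8 were called on the groups compared alone, 0 with all BMDM libraries and 8 without the WT libraries numbered 2. In control BMDMs (0 reported) 1 was called without them, Bst2 at 0.69. For the BMDM interaction (1 reported), 0 were called at an adjusted p under 0.01, 2 by DESeq2, 5 and 2 by limma with a pseudocount of 1 and 0.1, 0 with all BMDM libraries, 0 with the block added to them and 6 without the WT libraries numbered 2. For BMDC against BMDM, 5 were called in control without a filter and 5 by DESeq2 (3 reported), and 3 at 0.01 and 2 with all BMDM libraries under DMXAA (6 reported), where 6 other settings gave 7 with Mx2 added. The cell type interaction (3 reported) gave 0 with all BMDM libraries, where 0% of genes were called. In the BMDM libraries numbered 3 (3 reported), 5 were called without a filter, 1 with an FPKM of at least 5, 6 by DESeq2, and 6 and 5 by limma. Leaving out 1 library gave 7 to 8 for WT BMDMs, 5 to 7 for CRE BMDMs (Bst2 and Ifitm3 lost), 3 to 5 for CRE against WT under DMXAA and 0 to 1 in control BMDMs, 0 to 4 for the BMDM interaction, 7 in each BMDC response, 0 in each BMDC genotype comparison, 2 to 4 and 4 to 6 for the cell types in control and under DMXAA, and 1 to 3 for their interaction.

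Directions turned in 3 refits of 2 results in which the reported or the refitted value was called. The Ifitm3 interaction in BMDMs (0.22) was -0.72 without WT control library 2 (up to 0.75 without WT control library 1) and -0.62 without both WT libraries numbered 2, and the Isg20 cell type interaction (-1.66) was 0.29 with all BMDM libraries. The causes were not tested. Over 802 refits of the 50 called values, 1 changed sign and 88 were not called, and over 1394 refits of the 84 values not called, 122 changed sign, 2 of them then called.

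BMDM libraries 1 and 2 showed r = 0.685 between same-numbered control and DMXAA in WT and 0.037 in CRE cells. Same-numbered WT BMDM libraries thus deviated together, and both WT libraries numbered 2 held more fibroblast markers. The reported BMDM fits took no account of this. A replicate block gave 8, 7, 5, 0 and 1 called members in the BMDM comparisons, as reported, and 2 instead of 3 for the cell type interaction, where Cmpk2 did not pass (adjusted p = 0.06138). In BMDCs the block within each label called 8 members in both responses, with Ifitm1 added, and changed no other call there. Levels of a few counts, as for Ifitm1 in BMDMs, limit what depth can show.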
